A study of Arabidopsis thaliana with 36 samples.

Results

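The genes of the Arabidopsis mitochondrial genome are the 122 rows of the expression table whose identifiers start with ATMG, out of 27655 genes in all. The rule reads the identifier only. Of the 122, 38 were placed in functional lists: 14 genes or gene parts of complex I, 1 of complex III, 3 of complex IV, 6 of complex V, 5 of cytochrome c maturation, 7 of ribosomal proteins, and 2 of a maturase and a transporter. The other 84 are mostly open reading frames without a gene name and are given by identifier.

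Plant mitochondria keep a small genome of their own, while most of their proteins are encoded in the nucleus and imported. The organelle genome codes for core subunits of the respiratory chain and of the ATP synthase, for parts of the machinery that attaches heme to cytochrome c, and for some ribosomal proteins. Several transcripts, among them those of *nad1*, *nad2* and *nad5*, are assembled from separately encoded pieces by trans-splicing, so that 1 protein can correspond to several identifiers. Dry seeds hold mitochondria with few internal membranes, and respiration resumes when seeds take up water.

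RNA-seq was done on whole seeds of 2 genotypes. *h3.3ko* carries CRISPR mutations in *HTR4* and *HTR5* and a T-DNA insertion in *HTR8*, which together encode histone variant H3.3. Its seeds were picked by the absence of mCherry among the progeny of plants that carried a complementing *HTR5* transgene, so they developed on mothers with the transgene. Col is the Columbia wild type. Each genotype was sampled as mature seeds (MS), after stratification at 4 °C for 12, 24 or 48 h (S12h, S24h, S48h), and after 12 or 24 h under germination conditions (G12h, G24h), with 3 libraries in each of the 12 groups. Per the study, Col seeds had finished germinating by G24h and *h3.3ko* seeds had not.

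Libraries held 17047957 to 19388708 gene-assigned reads, recovered here from the steps of the deposited TPM values (a level relative to gene length and to the library total). The H3.3 gene AT5G10980 averaged 2.02 to 11.4 TPM in *h3.3ko* groups and 137 to 2187 TPM in Col groups, and AT4G40030 was also lower in *h3.3ko* at every stage. The third H3.3 gene, AT4G40040, averaged 298 TPM in *h3.3ko* MS and 290 TPM in Col MS, and was called lower in *h3.3ko* at 4 of the 5 later stages. The 9 seed storage protein genes, which mark the embryo, held 11.4 to 34.1% of TPM in *h3.3ko* groups and 0.0323 to 10.2% in Col groups. Their part in the mitochondrial differences was not tested, but results with these genes left out of the total are given where a count moved. RNA of whole seeds was measured, so fewer mitochondria, fewer cells and less RNA per mitochondrion cannot be told apart.

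Mitochondrial transcripts took a larger part of the transcriptome in *h3.3ko* than in Col at all 6 stages. Summed over the 122 genes, *h3.3ko* MS libraries had 3925, 3666 and 4548 TPM, against 798, 973 and 827 TPM in Col MS libraries. At S48h the sums were 3165, 3105 and 2809 TPM in *h3.3ko* libraries and 241, 266 and 271 TPM in Col libraries. At G24h *h3.3ko* libraries had 3650, 4045 and 3545 TPM, while Col libraries had 312, 272 and 282 TPM. No *h3.3ko* library overlapped a Col library of its stage. Such separation was common among single genes. Of all genes with a read at a stage, 23.7 to 37.3% had every *h3.3ko* library above every Col library. A further 32.9 to 51.7% had every *h3.3ko* library below.

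The ratio of the *h3.3ko* mean to the Col mean was 4.67 at MS, 4.32 at S12h and 4.78 at S24h. It was larger at the later stages, with 11.7 at S48h, and G12h and G24h had ratios of 12.9 and 13. The *h3.3ko* mean stayed between 3026 ± 191 TPM (S48h) and 5060 ± 619 TPM (S12h), whereas the Col mean was highest at S12h, with 1172 ± 54.1 TPM, and lowest at S48h, with 259 ± 15.9 TPM (SD, n = 3 each). A score over the members gets no test, and 3 libraries against 3 allow no exact permutation p below 0.1.

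**Figure D1:**
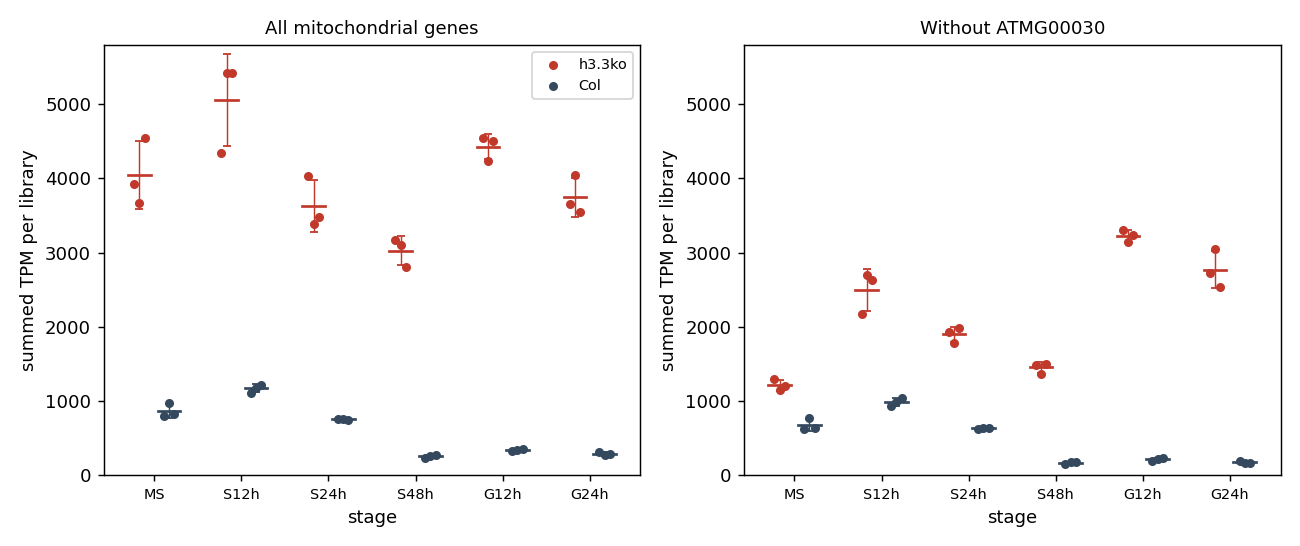
Summed TPM of the mitochondrial genes in each library (y axis) at the 6 stages (x axis), with *h3.3ko* in red left of Col in dark blue, the mean as a bar and the SD over 3 libraries as an error bar. With all 122 genes (left panel) *h3.3ko* means lie between 3026 and 5060 TPM and Col means between 259 and 1172 TPM, and without ATMG00030 (right panel) the MS means are 1216 and 677 TPM.

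A single reading frame, ATMG00030, made up much of the *h3.3ko* sum. It had 2631, 2518 and 3341 TPM in *h3.3ko* MS libraries, from 9281, 9061 and 12687 reads, against 177, 204 and 187 TPM in Col MS libraries, from 671, 756 and 741 reads. Its log2 fold change at MS was 3.89 (SE 0.12, limma adjusted p 6.18e-23), on the scale of log2(TPM + 1). It held 69.7 ± 3.34% of the summed mitochondrial TPM in *h3.3ko* MS and 21.9 ± 0.854% in Col MS (SD, n = 3 each).

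In *h3.3ko* ATMG00030 averaged 1573 TPM at S48h and 975 TPM at G24h, and G24h was lower than MS by the test (log2 fold change -1.53, SE 0.12, limma adjusted p 1.68e-13). No other of the 80 mitochondrial genes tested was called lower at G24h than at MS in *h3.3ko* on this scale, while median-of-ratios scaling called 10 lower. In Col its means were 189 TPM at MS and 110 TPM at G24h. The genotype difference at G24h was 3.14 (SE 0.12, limma adjusted p 2.42e-21), with 919, 1003 and 1005 TPM in *h3.3ko* libraries and 112, 106 and 112 TPM in Col libraries.

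Without ATMG00030 the other 121 genes summed to 1216 TPM in *h3.3ko* MS and 677 TPM in Col MS, a ratio of 1.8, and the libraries still did not overlap. The ratio without it was 8.57 at S48h, below that of the whole sum, and 14.9 at G12h and 15.5 at G24h, above it. The gene to leave out was chosen after its values were seen.

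Gene by gene, 80 of the 122 mitochondrial genes had at least 1 TPM in at least 3 of the 36 libraries and were tested. Of the other 42, 32 had reads below that level and 10 had no read in any library. The *h3.3ko* libraries alone would have let 80 genes pass and the Col libraries alone 59, so 21 were tested only through *h3.3ko*. A gene was called when its limma adjusted p was under 0.05 and its fold change on the log2 scale above 1 in size.

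In mature seeds 17 of the 80 genes tested (21.2%) were called higher in *h3.3ko* and 4 (5%) lower. Over all 19052 genes tested, 8.55% were called higher and 10.6% lower at this stage. All *h3.3ko* MS libraries lay above all Col MS libraries for 30.3% of the 122 genes, beside 30.7% of all genes with a read. During stratification 54 of the 80 were called higher at S12h (67.5%, background 10.9%). At S24h 60 were higher (75%, background 16.1%), and at S48h 67 (83.8%, background 17.8%). Under germination conditions G12h had 75 (93.8%, background 10.2%) and G24h had 74 (92.5%, background 9.63%). No mitochondrial gene was called lower by limma at any of these 5 later stages, against 14.6%, 16.1%, 17.8%, 17.6% and 29.4% of all genes in stage order, and at an unadjusted limma p under 0.05 the count lower was 0 at each of them.

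Among the 59 genes that pass on Col libraries alone, 16 were called higher in mature seeds. In stage order, the 3 stratified stages had 40, 46 and 54 of them higher, and the germination stages had 55 and 56. Their median log2 fold change was 0.49 in mature seeds, 1.29, 1.47 and 2.15 over the stratified stages in order, and 3.24 and 3.08 at G12h and G24h. The median over all genes tested lay between -0.39 (G24h) and 0.00 (MS, S24h and S48h). With genes that had no read in Col set at the bound given by 3 reads per library, these medians of the 59 genes were the same to 2 decimals.

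**Figure D2:**
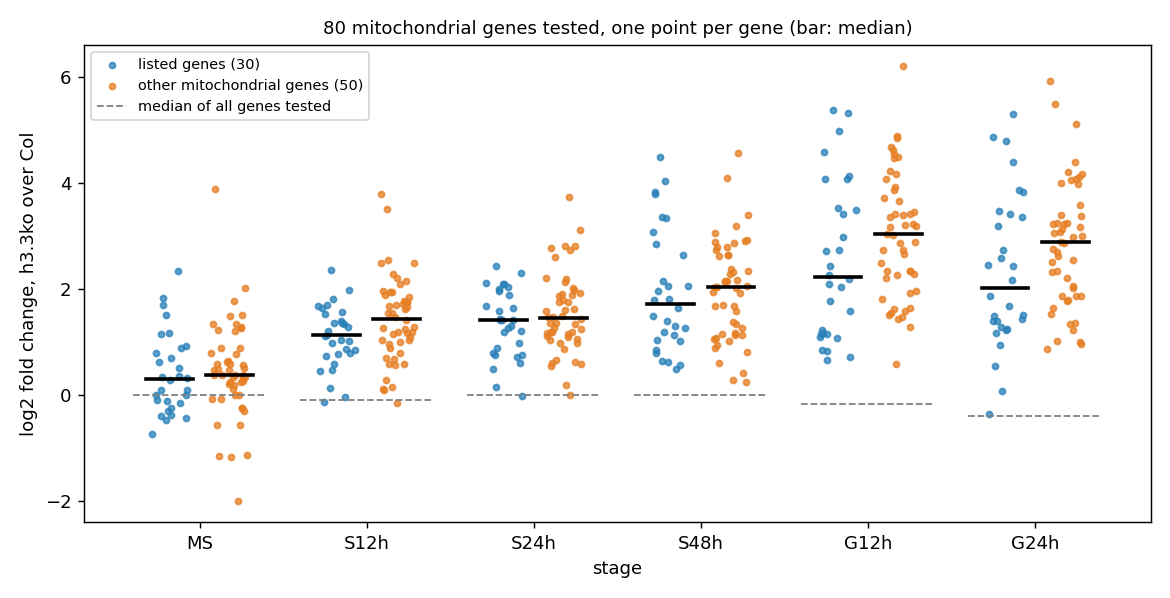
Log2 fold change of *h3.3ko* over Col on the log2(TPM + 1) scale (y axis) for each of the 80 mitochondrial genes tested, by stage (x axis), with the 30 listed genes in blue, the 50 others in orange, their medians as black bars and the median of all genes tested as a dashed line. The points spread from -1.99 to 3.89 at MS and lie mostly above 1 from S12h on.

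With storage protein genes left out of the total, 26 mitochondrial genes were called higher at MS and 1 lower. Without Col MS replicate 2, 2 were called lower. From S12h on, leaving out the storage genes or any 1 library gave 0 mitochondrial genes lower.

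Of the genes tested, 15 were called higher at all 6 stages, 33 at 5 stages and 16 at 4 stages, and 14, 24 and 11 of these also pass on Col libraries alone. At single stages 8.55 to 17.8% of all genes tested were called higher. The share of all genes called at several stages was not counted, so these counts have no background beside them. The 15 included *nad4L*, 1 part of *nad1* (ATMG00516), *ccmB*, *rps12*, and the reading frames ATMG00030, ATMG00130, ATMG00630, ATMG00680, ATMG00690 and ATMG01400. The 3 genes called at no stage on the TPM scale were *cox2*, *ccmFN1* and ATMG00600, the last of which had at most 5 reads in any of the *h3.3ko* libraries and none in Col. With storage genes left out of the total, *cox2* was called at S24h (1.16) and G12h (1.03) and ATMG00600 at G24h (1.10).

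Complex I, the NADH dehydrogenase that feeds electrons into the chain, has 14 identifiers in the list, of which 13 were tested. In *h3.3ko* 3 were called higher in mature seeds, 8, 9 and 11 over the stratified stages in order, and 11 and 12 under germination conditions, and none was lower. Of all genes tested, 8.55% were called higher at MS and 9.63 to 17.8% at the later stages. The shares called lower were 10.6% at MS and 14.6 to 29.4% later. *nad4L*, a small membrane subunit, had 89.7, 76.9 and 76.3 TPM in *h3.3ko* MS libraries against 24.6, 36.6 and 23.7 TPM in Col MS libraries (log2 fold change 1.51, SE 0.24, limma adjusted p 1.94e-06). At G24h it had 67.4, 76.1 and 69.2 TPM in *h3.3ko* libraries and 3.96, 2 and 1.56 TPM in Col libraries, the Col values coming from 4 to 10 reads each (log2 fold change 4.41, SE 0.24, limma adjusted p 5.24e-17). Groups did not overlap at either stage. Of all genes with a read, 30.7% were separate in this direction at MS and 23.7% at G24h.

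*nad9*, a subunit of the matrix arm, was not called at MS, where it averaged 35.6 TPM in *h3.3ko* and 18.4 TPM in Col (log2 fold change 0.92, limma adjusted p 0.000407). At G12h it averaged 63.1 TPM in *h3.3ko* and 2.82 TPM in Col (log2 fold change 4.09, SE 0.22, limma adjusted p 4.71e-17). The 3 tested parts of *nad1* behaved unlike each other in mature seeds. ATMG00516 had 6.38, 5.41 and 5.77 TPM in *h3.3ko* MS and 0.604, 1.3 and 0.873 TPM in Col MS (log2 fold change 1.84, SE 0.13, limma adjusted p 1.99e-13), whereas ATMG01120 averaged 10.9 TPM in *h3.3ko* MS and 11 TPM in Col MS (log2 fold change 0.00, SE 0.17).

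The *nad5* part ATMG00060 was called from S12h on, with differences between 1.05 and 1.43 on the log2 scale, the lowest at S48h, where the call was lost without Col replicate 3 (0.95). It averaged 34.9 TPM in *h3.3ko* and 12.3 TPM in Col at G24h. Another *nad5* part, ATMG00665, spans 22 bases, so few reads give a high TPM, and its 305 TPM in *h3.3ko* G24h and 20 TPM in Col G24h rested on 47 to 78 and on 3 to 5 reads per library. *nad3*, a small membrane subunit, had at most 11 reads in a library and was called at MS (1.18) and S48h (1.19). At S48h it had no read in Col libraries and 4 to 5 in *h3.3ko* libraries. That is at least 1.27-fold higher against a floor of 3 reads per Col library, and the call was lost with quantile normalization (0.98). At G24h *nad3* averaged 1.17 TPM in *h3.3ko* and 1.11 TPM in Col. *nad6*, with 45 reads over the 36 libraries, was not tested.

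Complex III is represented by *cob*, apocytochrome b, which had 8 reads in the 36 libraries and could not be compared. Complex IV, cytochrome c oxidase, has 3 genes in this genome. *cox1*, its catalytic subunit, had 46.9, 38 and 40.6 TPM in *h3.3ko* MS and 31, 34.9 and 33.4 TPM in Col MS (log2 fold change 0.33, SE 0.10, limma adjusted p 0.00473), below the fold required for a call. It had 87.5, 83 and 77.3 TPM in *h3.3ko* G12h and 0.766, 1.35 and 1.17 TPM in Col G12h, the Col values coming from 10, 18 and 15 reads (log2 fold change 5.33, SE 0.10, limma adjusted p 1.11e-28). The *cox1* groups were separate at both stages, by a small margin at MS and by a large one at G12h. Of all genes with a read, 30.7% were separate in this direction at MS and 28.5% at G12h.

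*cox2*, which takes electrons from cytochrome c, had 49, 51.9 and 44.6 TPM in *h3.3ko* G24h and 37.2, 31.1 and 29.4 TPM in Col G24h (log2 fold change 0.56, SE 0.11, limma adjusted p 2.03e-05), and on the TPM scale its difference reached 1 on the log2 scale at no stage, the largest being 0.90 at S24h. With storage genes left out of the total it was called higher at S24h (1.16) and G12h (1.03), and with quantile normalization at G12h (1.10) and G24h (1.06). In Col it was higher at G24h than at S48h (log2 fold change 1.08, SE 0.11, limma adjusted p 1.26e-10), with means of 32.6 TPM at G24h and 15.1 TPM at S48h, but it was among 4 genes of which median-of-ratios scaling called 1 and quantile normalization 0. *cox3* had 158 reads over all libraries and was not tested.

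Complex V, the ATP synthase, has 6 identifiers, 5 of which were tested. Of these, *atp8* passed the filter only through *h3.3ko* libraries. The count called higher was 1 in mature seeds, 3, 2 and 3 over the stratified stages in order, and 5 and 4 at G12h and G24h. Of all genes tested, 8.55% were called higher at MS and 9.63 to 17.8% later. *atp4*, a stalk subunit, averaged 35.4 TPM in *h3.3ko* MS and 20.4 TPM in Col MS (log2 fold change 0.79, not called), and 41.1 TPM in *h3.3ko* G24h against 2.27 TPM in Col G24h (log2 fold change 3.83, SE 0.27, limma adjusted p 3.48e-14). *atp1*, a subunit of the catalytic head, reached at most 2.83 TPM in a library and was called on the log2(TPM + 1) scale only at G12h (1.08) and G24h (1.17). Its G12h call was lost with median-of-ratios scaling (0.94) and quantile normalization (0.79), and its G24h call with quantile normalization (0.96). With storage genes left out of the total it was also called at S12h (1.05). With a pseudocount of 0.1 it was also called at S12h (1.25), S24h (1.52) and S48h (2.06). *atp9*, a subunit of the membrane ring, had no read in the 3 Col G24h libraries and 19 to 23 reads in *h3.3ko* libraries, at least 6.18-fold higher against a floor of 3 reads per Col library. ATMG01170, which sits in this list without a name that could be checked, was called at all 6 stages, with 48.9, 64.3 and 53.8 TPM in *h3.3ko* G24h and 0.693, 1.75 and 0.768 TPM in Col G24h (log2 fold change 4.80, SE 0.17, limma adjusted p 3.77e-22).

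**Figure D3:**
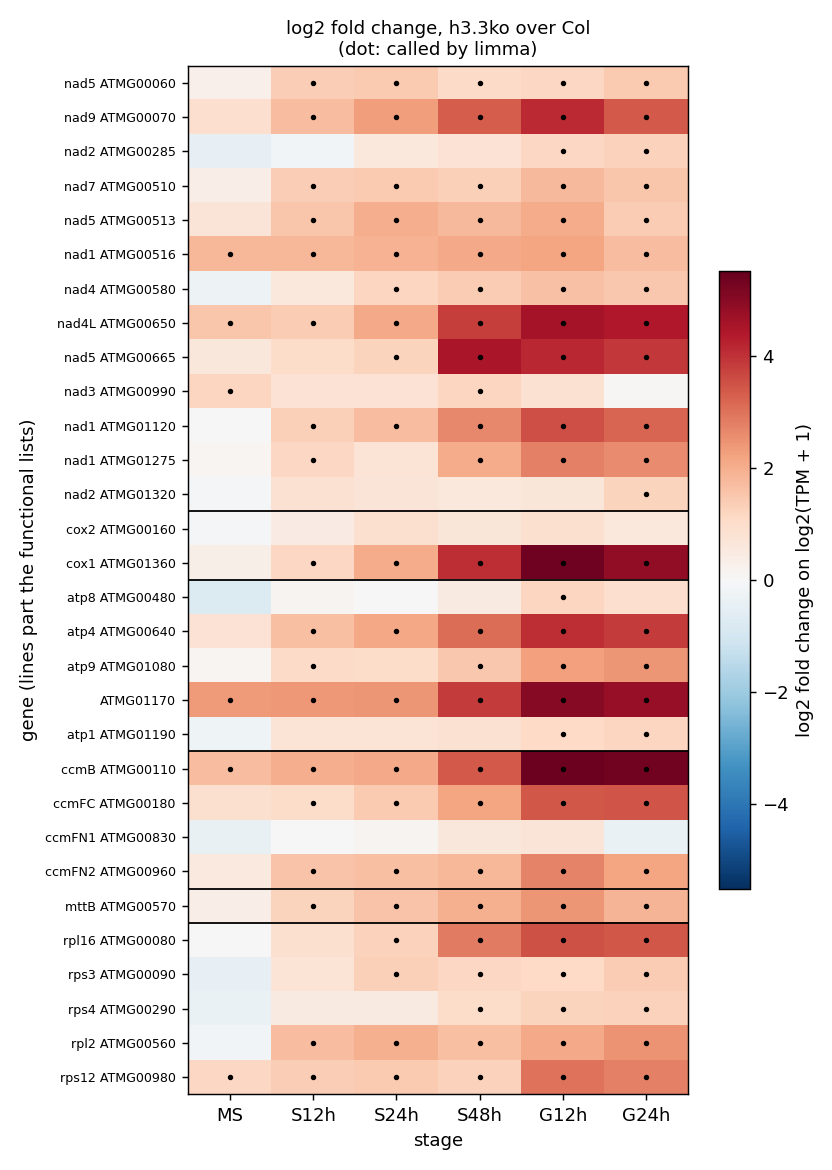
Log2 fold change of *h3.3ko* over Col (colour, on the log2(TPM + 1) scale) for the 30 listed mitochondrial genes tested (rows, parted by list) at the 6 stages (columns), with a dot where limma called the gene. *cox1* reaches 5.33 and *ccmB* 5.39 at G12h, while *cox2* and *ccmFN1* carry no dot.

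The cytochrome c maturation genes encode membrane proteins of the pathway that carries heme to apocytochromes and attaches it. Of 5, 4 were tested, and 1 was called higher at MS and 3 at each later stage (all genes 8.55% at MS and 9.63 to 17.8% later). *ccmFN2* was tested only through its *h3.3ko* levels, and without it the count was 2 at each later stage. *ccmB*, part of an ABC transporter of this pathway, had 34.8, 30.4 and 30.2 TPM in *h3.3ko* MS against 7.86, 8.71 and 10.8 TPM in Col MS (log2 fold change 1.71, SE 0.13, limma adjusted p 9.71e-13). In *h3.3ko* G12h it had 99.6, 101 and 100 TPM, and in Col G12h 1.56, 1.15 and 1.59 TPM (log2 fold change 5.39, SE 0.13, limma adjusted p 1.22e-25). *ccmFC*, a part of the heme lyase, was called from S12h on and averaged 11.4 TPM in *h3.3ko* G24h and 0.103 TPM in Col G24h, where each Col library had 2 reads. Its S12h call (log2 fold change 1.03) was lost without any of 3 single libraries, Col replicate 1, Col replicate 2 or *h3.3ko* replicate 3, with values of 0.94 to 0.97. *ccmFN1*, another part of the lyase, was called nowhere, with 0.575 TPM in *h3.3ko* G24h and 1.08 TPM in Col G24h. *ccmC* had 2 reads in all and was not tested.

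Of 7 genes for mitochondrial ribosomal proteins, 5 were tested. In *h3.3ko* 1 was called higher at MS, 2 at S12h, 4 at S24h and all 5 at S48h, G12h and G24h. The share of all genes tested was 8.55% at MS and 9.63 to 17.8% later. *rps3*, of the small subunit, had 34.4, 33 and 31.6 TPM in *h3.3ko* MS and 42.8, 52.4 and 40.4 TPM in Col MS, a difference of -0.44 (SE 0.10, limma adjusted p 0.000272) that was not large enough for a call. At G24h it had 79.5, 90.4 and 73.7 TPM in *h3.3ko* libraries and 35.8, 28.2 and 26.7 TPM in Col libraries (log2 fold change 1.40, SE 0.10, limma adjusted p 3.53e-14). Every *h3.3ko* library was below every Col library at MS and above at G24h on the TPM scale. Of all genes with a read, 32.9% were separate that way at MS and 23.7% at G24h. With storage genes left out of the total, the *rps3* difference was 0.00 at MS and 1.67 at G24h. On the TPM scale *rps3* was called higher at G24h than at S48h in both genotypes, by 1.34 in *h3.3ko* and by 1.08 in Col on the log2 scale.

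*rpl16*, of the large subunit, had the same mean of 25.7 TPM in *h3.3ko* MS and Col MS and was called from S24h on, with 30.2 TPM in *h3.3ko* G24h and 1.92 TPM in Col G24h (log2 fold change 3.42, SE 0.15, limma adjusted p 7.55e-20). *rpl2* averaged 1.47 TPM in *h3.3ko* MS and 1.74 TPM in Col MS, and 12 TPM in *h3.3ko* G24h and 1.38 TPM in Col G24h (log2 fold change 2.46, SE 0.11). *rps12* was called at all stages on few reads, at most 50 in a library, and at MS and S48h its call was lost without Col replicate 3 (0.88 and 0.99). The transporter gene *mttB*, which passed the filter only through *h3.3ko* libraries, was called from S12h on, with 3.38 TPM in *h3.3ko* G24h and 0.187 TPM in Col G24h, and the other gene of its list, ATMG00520, had no read.

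Among the genes without a checked name, 50 of 84 were tested. At MS 11 were called higher and 4 lower, and 36, 40, 43, 49 and 48 higher at the 5 later stages in order. Of the 50, 18 passed the filter only through *h3.3ko* libraries. Among the 32 that pass on Col libraries alone, 10 were higher and 4 lower at MS, and 24, 28, 32, 32 and 32 were higher at the later stages, beside 8.55% of all genes higher at MS and 9.63 to 17.8% at the later stages. ATMG01370 was the second most abundant mitochondrial gene. It had 333, 301 and 323 TPM in *h3.3ko* MS against 75.4, 75.1 and 81.3 TPM in Col MS (log2 fold change 2.03, SE 0.13, limma adjusted p 1.79e-14). At S12h it averaged 466 TPM in *h3.3ko* and 209 TPM in Col. At S24h, the only stage without a call, it averaged 383 TPM in *h3.3ko* and 193 TPM in Col (log2 fold change 0.99, and 1.26 with storage genes left out of the total).

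At G24h ATMG01370 had 877, 882 and 839 TPM in *h3.3ko* libraries and 11.4, 13 and 15.5 TPM in Col libraries (log2 fold change 5.93, SE 0.13, limma adjusted p 5.92e-27). On the TPM scale it rose between MS and G24h in *h3.3ko* (1.44) and fell in Col (-2.46). The medians of all genes tested were 1.01 in *h3.3ko* and 1.39 in Col. For ATMG01370 the interaction of genotype and stage was 3.90 (SE 0.19, limma adjusted p 3.82e-18). The share of mitochondrial TPM it took was 23.2% in *h3.3ko* G24h and 4.64% in Col G24h.

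ATMG00630 had 39.7, 38.7 and 32 TPM in *h3.3ko* MS and 11.3, 19.4 and 13.5 TPM in Col MS. Its difference at G12h, 6.21 on the log2 scale (SE 0.20, limma adjusted p 6.04e-23), was the largest of any mitochondrial gene at that stage, with 180, 190 and 198 TPM in *h3.3ko* libraries and 1.09, 2.85 and 1.11 TPM in Col libraries. ATMG00660 and ATMG00690 were the next most abundant of these genes, with 147 and 108 TPM in *h3.3ko* G24h and 20.9 and 4.19 TPM in Col G24h. ATMG01400, ATMG00010 and ATMG00680 had log2 fold changes of 3.52, 2.55 and 2.49 at S12h on Col values of 1.43 to 1.62 TPM. ATMG00010, which was tested only through its *h3.3ko* levels, had no read in Col G24h and 36 to 39 in *h3.3ko* libraries, at least 10.9-fold higher against 3 reads per library, and ATMG00680 was likewise at least 8.93-fold higher.

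In mature seeds 4 genes were lower in *h3.3ko*, none of them with a name that could be checked. ATMG01090, whose nuclear match AT2G07777 is described in RefSeq as ATP synthase 9, had 10.1, 9.24 and 7.35 TPM in *h3.3ko* MS and 36.7, 42.3 and 35.6 TPM in Col MS (log2 fold change -1.99, SE 0.19, limma adjusted p 7.09e-11). ATMG01130 (-1.14), ATMG01200 (-1.13) and ATMG00200 (-1.17) were also lower, the last on 4 to 7 reads in *h3.3ko* libraries. With storage genes left out of the total, ATMG01130 (-0.73), ATMG01200 (-0.78) and ATMG00200 (-0.90) were no longer called. ATMG01200 and ATMG00200 also lost their calls without Col MS replicate 2 (-0.94 each), while ATMG01090 was called lower at MS in every alternative fit.

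At S48h, G12h and G24h all 4 were called higher. At G12h ATMG01090 had 25.5, 23.8 and 24.2 TPM in *h3.3ko* libraries and 1.08, 1.65 and 2.97 TPM in Col libraries (log2 fold change 3.19, SE 0.19, limma adjusted p 6.10e-16). For ATMG01090 the MS to G24h interaction was 4.99, and for ATMG01130 it was 5.32. ATMG01220, with 9.02 TPM in *h3.3ko* MS and 13.8 TPM in Col MS, reached 95.3 TPM in *h3.3ko* G24h and 1.76 TPM in Col G24h, with an interaction of 5.70 (SE 0.22, limma adjusted p 6.52e-21).

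**Figure D4:**
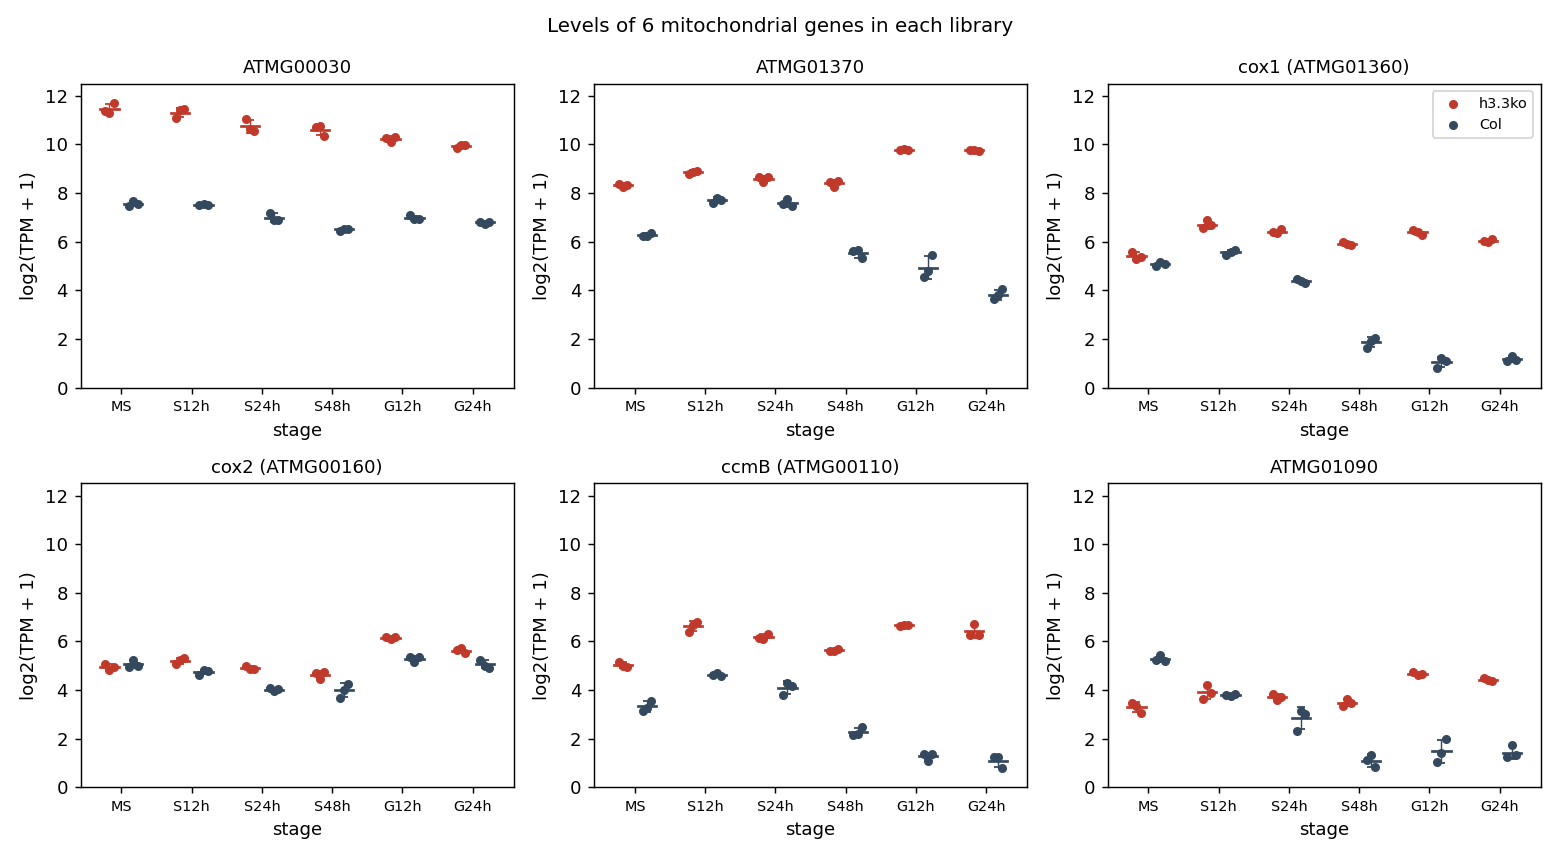
Levels of 6 mitochondrial genes as log2(TPM + 1) in each library (y axis) by stage (x axis), with *h3.3ko* in red left of Col in dark blue, the mean as a bar and the SD over 3 libraries as an error bar. ATMG00030 is separate at all stages, *cox1* and *ccmB* are furthest apart at G12h, and *cox2* stays within 1 unit between genotypes. ATMG01090 is lower in *h3.3ko* at MS (-1.99) and higher at G12h (3.19).

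Within Col, mitochondrial transcripts were lower after stratification. Between MS and S48h 27 of the 80 genes tested (33.8%) were called lower and none higher. Over all genes tested 10.3% were called lower and 48.2% higher. Between MS and G24h 27 genes (33.8%) were called lower and none higher as well (all genes 9.42% lower, 59.3% higher). Between S48h and G24h 4 (5%) were called higher and 3 (3.75%) lower (all genes 29.1% and 13.4%). At an unadjusted limma p under 0.05, 0 genes were higher than at MS in Col S48h or G24h. *cox1* fell to 1.26 TPM in Col G24h, against 33.1 TPM in Col MS (log2 fold change -3.91, SE 0.10, limma adjusted p 2.00e-26). The median gene of the whole table moved by 0.92 between MS and S48h and by 1.39 between MS and G24h in Col, and median-of-ratios scaling called 50 and 53 mitochondrial genes lower.

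Within *h3.3ko* 20 of the 80 genes tested (25%) were called higher and none lower at S48h against MS on the TPM scale. Median-of-ratios scaling called 1 higher and 22 lower. Of all genes 51% were called higher and 3.21% lower on the TPM scale, with a median of 1.03, and 8 mitochondrial genes were lower at an unadjusted limma p under 0.05. At G24h against MS 47 (58.8%) were higher and 1 (1.25%) lower on the TPM scale (all genes 50.4% and 3.52%), but 16 and 10 under median-of-ratios scaling. At G24h against S48h 10 were called higher and none lower (all genes 8.76% and 12.4%), with 2 lower at an unadjusted limma p under 0.05. Among the 59 genes that pass on Col libraries alone, 17 were higher at S48h against MS on the TPM scale. At G24h against MS 35 of these were higher and 1 lower, and at G24h against S48h 9 were higher.

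The difference between genotypes in the change over time was tested as an interaction. The 21 genes tested only through *h3.3ko* libraries were low in Col and could fall little there. Their part in the counts below was not separated. From MS to S48h 57 of the 80 genes tested changed more positively in *h3.3ko* than in Col and none more negatively (all genes 19.5% and 16.9%). At an unadjusted limma p under 0.05, 0 were more negative. From MS to G24h 69 did so, and 1, *nad3*, changed more negatively (-1.10, SE 0.35, limma adjusted p 0.00472), a call lost without Col MS replicate 2, Col MS replicate 3 or Col G24h replicate 2 (all genes 13.4% and 31.2%). For *cox1* the interaction to G24h was 4.55 (SE 0.14, limma adjusted p 4.66e-23), for *nad4L* 2.91 and for *ccmB* 3.61. For *cox2* it was 0.68 (SE 0.15, limma adjusted p 0.00019), below the fold required.

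A large piece of the mitochondrial genome is also present on nuclear chromosome 2, and the level listed for a mitochondrial gene went with whether its sequence lies in that piece. For 34 named genes and gene parts, the share of 100-base windows that also occur on chromosome 2 was counted in the TAIR10.1 reference, whose mitochondrial assembly is not the one the files use. The 10 genes with under 50% of windows there, among them *nad4L*, *nad9*, *cox1*, *cox2*, *atp4*, *ccmB*, *rps3* and *rpl16*, had means over the 36 libraries of 15.3 to 50 TPM. The 24 genes with over 50%, all at 81.1% or more, had means of 0.00728 to 6.12 TPM, and the ranges did not meet. *cob*, *ccmC*, *rpl5*, *cox3*, *nad6* and *rps7*, which gave too few reads to test, were all at 100%.

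How reads that match both copies were treated by the counting was not given in the sources used here, and its part in these levels was not tested. The level of a gene with a nuclear copy is uncertain for that reason. RefSeq gives 45 of the 122 mitochondrial genes as the best match of a nuclear gene. Among them are ATMG01220, ATMG00200, ATMG01280 and ATMG01090, whose windows were not counted and to which the same limit may apply. At G12h 9 of the 10 genes outside the insertion were called higher in *h3.3ko* (median log2 fold change 3.81). Of the 24 inside it 18 were tested and 15 called higher (median 1.91), beside 10.2% of all genes tested. These 15 include *atp8*, *ccmFN2* and *mttB*, which were tested only through *h3.3ko* libraries. At MS 2 of the 10 and 3 of the 18 were called higher (all genes 8.55%).

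**Figure D5:**
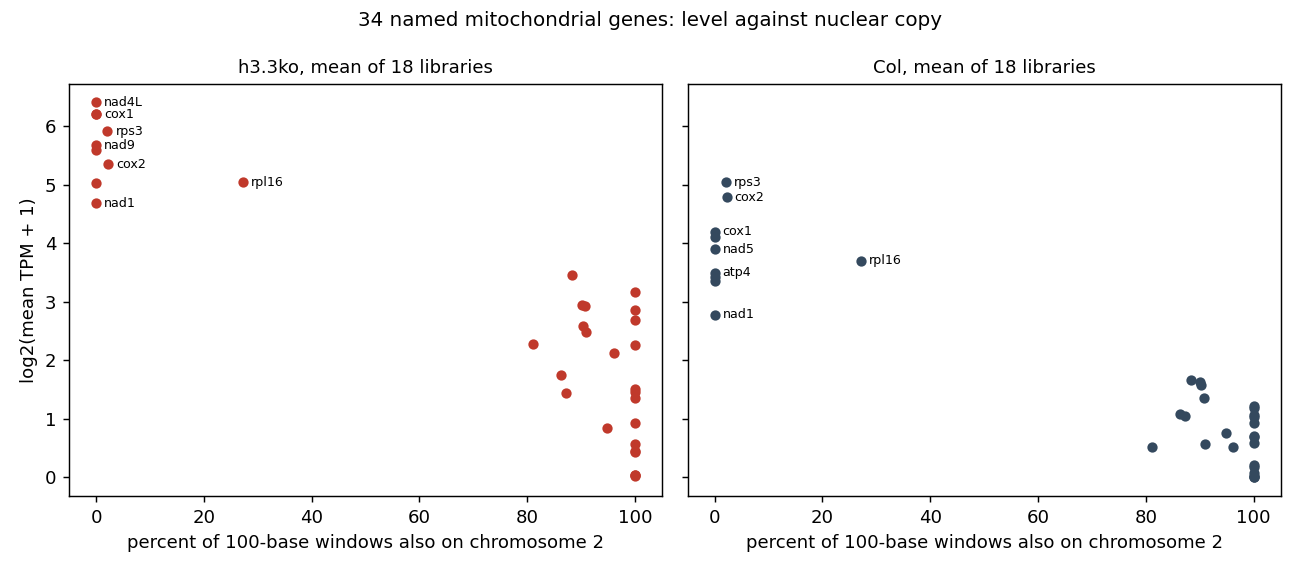
Mean level of 34 named mitochondrial genes and gene parts over the 18 libraries of each genotype as log2(mean TPM + 1) (y axis), against the percent of their 100-base windows that also occur on nuclear chromosome 2 in TAIR10.1 (x axis), *h3.3ko* left and Col right. Genes at or near 0% stand above those at 81.1% or more in both panels, and some labels are left out where points lie close.

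The 79 nuclear genes annotated in the chromosome 2 region, AT2G07640 to AT2G07815, were set beside them. They summed to 163 ± 5.42 TPM in *h3.3ko* MS and 140 ± 11.4 TPM in Col MS, and to 644 ± 78.9 TPM in *h3.3ko* G24h and 110 ± 19.1 TPM in Col G24h (SD, n = 3 each). Of the 79, 52 were tested, 22 of them only through *h3.3ko* libraries. In mature seeds 7 were called higher and 1 lower in *h3.3ko* (all genes 8.55% and 10.6%). Later 27, 28 and 33 were higher over the stratified stages in order (10.9%, 16.1% and 17.8%), and 43 and 38 at G12h and G24h (10.2% and 9.63%), with 1 lower at G24h. Among the 30 that pass on Col libraries alone, 4 were higher at MS, and 18, 20, 25, 24 and 24 at the later stages. Whether these reads came from the nuclear or the mitochondrial copy cannot be told from the table.

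Genes of the chloroplast genome, the other organelle genome, were summed in the same way. Their 88 genes summed to 4456 TPM in *h3.3ko* MS and 1881 TPM in Col MS, a ratio of 2.37. The ratio was also above 1 at S12h (1.52) and S24h (1.45), and below 1 at S48h (0.665), G12h (0.292) and G24h (0.353). At G24h the chloroplast sum was lower in *h3.3ko* than in Col, whereas the mitochondrial sum was higher.

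A selected list of nuclear genes for the same complexes, not every nuclear subunit, was set beside the mitochondrial ones. It held 3 genes each for complexes I and IV. Of the 24 listed nuclear genes of complexes I to V and cytochrome c, 1 was called higher and 1 lower at MS (median 0.29). At S12h 1 was called lower and 0 higher, with 2 higher at an unadjusted limma p under 0.05, at S24h 1 higher and 3 lower, and at S48h 2 higher and 2 lower. At G12h 1 was called higher and 7 lower (median -0.74), and at G24h 1 higher and 12 lower. AT5G08670, which codes for a beta subunit of the mitochondrial ATP synthase, had 388, 429 and 381 TPM in *h3.3ko* G24h and 786, 845 and 835 TPM in Col G24h (log2 fold change -1.04, SE 0.06, limma adjusted p 6.49e-16). *SDH2-1* and *SDH2-2*, iron-sulfur subunits of complex II, were lower at G24h by -2.15 and -1.87. Background percentages at these stages are those given for the mitochondrial counts.

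*SDH2-3*, the form of this subunit known from seeds, had 196, 196 and 198 TPM in *h3.3ko* MS and 492, 509 and 478 TPM in Col MS (log2 fold change -1.32, SE 0.10, limma adjusted p 9.56e-13). At G24h it had 256, 244 and 259 TPM in *h3.3ko* and 14, 17.5 and 18.3 TPM in Col (log2 fold change 3.86, SE 0.10, limma adjusted p 4.42e-25). Its groups did not overlap at either stage. Of all genes with a read, 32.9% were likewise below at MS and 23.7% above at G24h.

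Alternative oxidase, which passes electrons from ubiquinol to oxygen past complexes III and IV, is encoded in the nucleus. *AOX1A* had 55.1, 67.5 and 56 TPM in *h3.3ko* G12h and 0.327, 0.639 and 0.775 TPM in Col G12h (log2 fold change 5.26, SE 0.14, limma adjusted p 1.78e-24), but 48.1 TPM in *h3.3ko* G24h and 21.3 TPM in Col G24h (1.13). *AOX2* was lower in *h3.3ko* MS (18 TPM, against 58.5 TPM in Col MS) and higher at G24h (40.7 TPM, against 11.4 TPM in Col). Both were called higher in *h3.3ko* at S48h, G12h and G24h.

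Of 6 nuclear genes for mitochondrial RNA polymerases and RNA processing, 1 was called lower in *h3.3ko* in mature seeds, and 3, 2 and 2 over the stratified stages in order (all genes 10.6%, 14.6%, 16.1% and 17.8%). At G12h and G24h limma called 0 lower, with 2 and 4 lower at an unadjusted limma p under 0.05. AT1G68990, a mitochondrial RNA polymerase, averaged 5.74 TPM in *h3.3ko* S12h and 16.6 TPM in Col S12h (log2 fold change -1.38), and 13.6 TPM in *h3.3ko* G24h and 18 TPM in Col G24h (-0.38, not called). Of 3 nuclear cytochrome c maturation genes, *ABCI1*, an ABC transporter subunit of this pathway, was lower at MS (-1.34), S12h (-1.44) and S24h (-1.21), stages at which the mitochondrial *ccmB* was higher.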

How the data were processed

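RNA-seq libraries of whole seeds, 36 in all, were made per the labels with 3 replicates in each of 12 groups. Reads were trimmed with fastp 0.20.1, mapped to TAIR10 with HISAT2 2.1.10 and counted with HTSeq 0.11.2 by the authors, who deposited TPM computed from the counts in R. The study describes its strand-specific libraries apart from these, with another kit, so reads of overlapping or antisense genes cannot be told apart here. The treatment of multiply matching reads and poly(A) selection or rRNA depletion are not given in the sources used here. TPM steps were whole multiples of 1 read at the genomic span of a gene, introns included, so levels are per span, and reads were recovered from them (24897 genes by span, 199 by a search over lengths, within 0.02 of a whole number, including 112 mitochondrial genes). A floor of 3 reads covers counting error only.

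Genes with at least 1 TPM in at least 3 libraries (19052) were fitted with limma 3.58.1 in R 4.3.3 on log2(TPM + 1), a pseudocount of 1, with 12 group means, a variance trend and Benjamini-Hochberg adjustment over all genes tested. This scale understates changes of low genes. The study calls the 3 libraries independent biological replicates without saying what was separate, so p-values measure the spread between libraries. The fit was tested on simulated data. Alternatives were a pseudocount of 0.1, no filter, a mean of at least 5 TPM, median-of-ratios and quantile scaling, storage genes left out, the nuclear total, a replicate block, each stage alone and each library left out. Replicate numbers were checked through correlated deviations, which were 0.249, 0.285 and 0.187 at S12h, so numbers were taken to pair libraries there, and not every pair was above 0.1 elsewhere. The main fit has no pairing term, so its S12h p-values leave that pairing out.

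Names of 33 of 38 listed genes rest on a length within 5% of the RefSeq gene (TAIR10.1) and 3 on a RefSeq description, and 2 had neither. Text names every listed gene where relevant, the 5 most abundant other genes, and, at each stage, the 3 largest called fold changes in each direction with at least 5 TPM and no overlap. ATMG00200 and ATMG00600 were named after their values were seen. The members and lists were chosen with earlier results of these data known.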

Additional observations from a re-analysis of the deposited data

Results flagged for a closer look

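The change over time differed between genotypes by the limma interaction test for 57 mitochondrial genes from MS to S48h, all more positive in *h3.3ko*. From MS to G24h 69 were more positive in *h3.3ko* and 1, *nad3*, was more negative. The genes tested included the 21 that passed the filter only through *h3.3ko* libraries. For some of the genes with a more positive interaction, the change itself was called higher in *h3.3ko* and lower in Col. From MS to S48h these were ATMG00670 (2.51), ATMG01130 (3.48) and ATMG01220 (3.36), values being differences on the log2 scale. From MS to G24h they were *ccmB* (3.61), ATMG00130 (2.28), ATMG00140 (3.86), ATMG00150 (2.77), *ccmFC* (2.60), ATMG00200 (4.23), ATMG00630 (4.21), the *nad5* part ATMG00665 (3.24), ATMG00670 (3.94), ATMG01090 (4.99), the *nad1* part ATMG01120 (3.20), ATMG01130 (5.32), ATMG01220 (5.70), ATMG01280 (3.27) and ATMG01370 (3.90). The direction within *h3.3ko* rests on the TPM scale, since median-of-ratios scaling called 16 genes higher and 10 lower there. ATMG00140, ATMG00150, ATMG00670 and ATMG01280 are named here after their values were seen. With 3 libraries a group, single libraries were not screened for outlying values.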

How the results depend on the processing

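The counts with a replicate block were those without it (17, 54, 60, 67, 75 and 74 higher from MS to G24h), and the block changed no call of a named gene. The block gave each replicate number an effect shared by all 12 groups, so it cannot show the effect of pairing at S12h alone. Fits of each stage alone, without a filter and on the nuclear total gave counts within 1.5 times. In *h3.3ko* against Col at MS, the 17 genes higher became 26 with a pseudocount of 0.1, 11 with a mean of at least 5 TPM and 26 without storage genes, and the 4 lower became 2 with that mean filter and 1 without storage genes. The mean filter, which tests fewer genes, gave 22 at S12h, 26 at S24h and 29 at S48h, G12h and G24h, and 8, 6 and 19 higher in *h3.3ko* at S48h over MS, G24h over S48h and G24h over MS, with interactions of 25 and 28 higher and 0 lower. In *h3.3ko* at S48h over MS, the higher and lower counts were 32 with the pseudocount of 0.1 (higher), 1 and 22 by median-of-ratios, 0 and 23 by quantile, and 1 lower without storage genes. At G24h over S48h the higher count was 18 by pseudocount and 19 by quantile. At G24h over MS it was 16 and 9 by median-of-ratios and quantile, and the lower count was 2 by pseudocount, 10 and 7 by those, and 2 without storage genes. In Col the lower count at S48h over MS was 49, 50 and 62 and at G24h over MS 53, 53 and 69 by pseudocount, median-of-ratios and quantile. In Col at G24h over S48h 13, 1 and 0 were higher by those, and 19 and 8 lower by pseudocount and quantile. The lower interaction count to G24h was 0 by quantile. The cause of these shifts was not tested. A planned voom fit on reads recovered from the TPM steps was left out, since the deposited values are TPM and not counts.

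The ratio of summed mitochondrial TPM was, without storage genes, 6.38, 5.5, 5.77, 13.5, 14.6 and 15.7 from MS to G24h, by median-of-ratios 5.21 at S12h, 14.3 at G12h and 16 at G24h, and without ATMG00030 (added after seeing the data, as was the restriction to genes passing in Col) 1.8, 2.53, 3, 8.57, 14.9 and 15.5. Leaving out 1 library gave ratios of 4.38 to 4.98, 4.17 to 4.62, 4.51 to 4.94, 11.3 to 12.1, 12.6 to 13.2 and 12.4 to 13.5. It gave 17 to 20 higher and 2 to 4 lower at MS (2 without Col MS replicate 2), and then 52 to 56, 58 to 61, 63 to 66, 75 to 76 and 73 to 75 higher. Within *h3.3ko* it gave 21 to 25 (S48h over MS), 10 to 15 (G24h over S48h), and 46 to 52 higher with 1 to 2 lower (G24h over MS, 2 without *h3.3ko* MS replicate 2 or *h3.3ko* G24h replicate 3). Within Col it gave 24 to 30 lower, 1 to 7 higher with 2 to 4 lower (1 higher without Col G24h replicate 1, 2 without Col S48h replicate 1, 7 without Col S48h replicate 3), and 27 to 31 lower. Interactions were 50 to 59 and 69 to 71 higher, with 0 to 1 lower to G24h (0 without Col MS replicate 2 or 3 or Col G24h replicate 2). Few reads limit the precision of low genes, and a Col S48h library held 1549 to 1811 mitochondrial reads.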
